A study of Caenorhabditis elegans with 2 samples.

Results

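The regions described here lie on the X chromosome of Caenorhabditis elegans and ranked high in a chromatin immunoprecipitation and sequencing (ChIP-seq) experiment on the nuclear hormone receptor NHR-28. They were chosen by place and by rank: a pooled list of 30000 candidate regions was ordered by the authors' signal value, and the X regions of rank 1 to 3000 were taken. This gave 568 regions out of 5449 candidate regions on X, and the other 4881 X regions, of lower rank, served for comparison. Each region was 330 bp wide, and the 568 regions formed 565 separate places, because 3 places held 2 overlapping regions. The same 3000 ranks also held 2407 regions on the 5 autosomes and 25 on the mitochondrial genome.

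The animals were L1 larvae, the first larval stage, of strain OP317, with the genotype unc-119(ed3) III; wgIs317. NHR-28 was fused to enhanced green fluorescent protein (eGFP) and came from the integrated transgene wgIs317, so the ChIP measured the tagged protein and not the untagged receptor alone. Whole animals were used, with both sexes pooled per the labels, so signal from different tissues cannot be told apart. The 2 biological replicates formed 1 group, and there was nothing to set it against but other regions. Both replicates were set against the same control alignment, per the deposited file listing, so their lists are not independent of each other in that respect. The depth of each library is unknown.

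Nuclear hormone receptors bind DNA through zinc fingers and regulate transcription, and C. elegans has a large family of them. The X chromosome of this worm is also the target of dosage compensation: a condensin-like complex binds both X chromosomes of hermaphrodites and lowers their transcription. The complex is first loaded at recruitment sites on X, which are known for a short sequence, the MEX motif (motif enriched on X), whose core is CGCAGGG. All sequences shown were read from the RefSeq copy of the reference genome WBcel235, the assembly also called ce11.

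The core CGCAGGG lay within the 200 bp window around the summit, the base of highest signal, of 15 of the 568 regions. The share was 2.64% (95% exact interval 1.49 to 4.32), against 17 of 4881 or 0.348% (0.203 to 0.557) of the lower-ranked X regions and 0.330% of all adjoining 200 bp windows of X. Over all nuclear candidate regions it was 0.340%. The 15 regions were unevenly spread over the ranks, since 10 of them were among the 30 highest on X. Those 30 regions, 22.4% of the nuclear regions of rank 1 to 159, were also the X regions of the authors' thresholded list, which takes in 0.530% of all candidate regions. That list holds 159 peaks that passed a limit on the irreproducible discovery rate, which rests on how alike separate rankings order the same regions. No source used here says which rankings were compared. The 30 X regions of the list are therefore not taken as chosen for agreement between the replicates. The 14 core matches in these 10 regions are shown with 10 bases on each side, because the share with the core differed between members and lower-ranked X regions by the largest ratio among the 6 motifs searched. Each is written 5′ to 3′ on the strand that reads CGCAGGG, and capitals mark the core.

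Rank 31, nearest start gtr-1, chrX:806665-806691, plus strand: gcgattatcgCGCAGGGgtgtttgttg
Rank 31, nearest start gtr-1, chrX:806741-806767, plus strand: aaccgatacgCGCAGGGaaaaaaaaat
Rank 39, nearest start F55G7.5, chrX:11937532-11937558, plus strand: gaggtacaaaCGCAGGGaagagaatta
Rank 42, nearest start Y41G9A.17, chrX:2997113-2997139, minus strand: aaatttatcgCGCAGGGaggaagtagc
Rank 46, nearest start W02H3.3, chrX:11094115-11094141, minus strand: ttttatatcgCGCAGGGagcttatgca
Rank 46, nearest start W02H3.3, chrX:11094216-11094242, minus strand: gaaccattcgCGCAGGGacacctcact
Rank 56, nearest start T27A8.7, chrX:16056523-16056549, minus strand: tcaaatttgcCGCAGGGagttgcacat
Rank 57, nearest start cest-16, chrX:6296539-6296565, plus strand: ttacatttggCGCAGGGggtcaccata
Rank 57, nearest start cest-16, chrX:6296567-6296593, plus strand: ataggtatcgCGCAGGGaagatttacc
Rank 72, nearest start xol-1, chrX:8036426-8036452, plus strand: ttttccatcgCGCAGGGaacccttcga
Rank 72, nearest start xol-1, chrX:8036391-8036417, minus strand: ttttttatcgCGCAGGGacgtatgtcg
Rank 110, nearest start nspc-17, chrX:14525890-14525916, minus strand: ttgcctatcgCGCAGGGacagatgtgg
Rank 115, nearest start F22H10.2, chrX:16682162-16682188, minus strand: gaaaacatcgCGCAGGGaacatcaaat
Rank 133, nearest start F20B6.9, chrX:4209256-4209282, minus strand: gccgctatcgCGCAGGGacacctcttt

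The core was not the only part that the matches had in common. Of all 19 matches in the 15 regions, 84.2% had the base G directly before the core, and 73.7% had the base A directly after it. The 3 positions farther upstream also had a leading base, in 78.9%, 78.9% and 68.4% of matches going outward. The regions of rank 31, 46, 57 and 72 held 2 matches each. The distance from the core's centre to the summit had a median of 42.5 bp over the 14 matches and ran from 2 to 90 bp. Matches were sought only in the 200 bp window, which bounds this distance, so it does not show closeness to the summit. The other 5 matches lay 1 each in regions of lower rank and are shown in the same way.

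Rank 330, nearest start apm-3, chrX:954901-954927, minus strand: ataaacaacgCGCAGGGagttatttcg
Rank 598, nearest start ins-39, chrX:1345047-1345073, plus strand: atgtcattcgCGCAGGGcagctgagcc
Rank 1364, nearest start col-185, chrX:13514549-13514575, plus strand: acctttatcgCGCAGGGatattgaaat
Rank 1422, nearest start gcc-1, chrX:3159716-3159742, minus strand: gtaaacaacgCGCAGGGcgttcgagcg
Rank 1959, nearest start sod-3, chrX:17091943-17091969, plus strand: ggtgaaatttCGCAGGGgaacatcata

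These 5 regions had more varied surroundings. The region of rank 330 lay in a coding exon of apm-3, which encodes a subunit of the AP-3 adaptor of vesicle traffic. That of rank 598 lay 689 bp upstream of ins-39, an insulin-like peptide gene, and that of rank 1364 lay 3499 bp upstream of the collagen gene col-185. At rank 1422 the region lay 279 bp upstream of gcc-1. At rank 1959 it lay in an intron of C08A9.3 and 735 bp upstream of sod-3, which encodes a mitochondrial superoxide dismutase.

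For 3 of the highest X regions the whole 200 bp window is given, to show a region with 2 cores on the plus strand (rank 31), a region with 2 cores on the minus strand (rank 46), and the highest X region, which held none (rank 23). Capitals mark CGCAGGG or, where the core reads on the minus strand, its reverse complement CCCTGCG.

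Rank 31, nearest start gtr-1, chrX:806576-806775, plus strand: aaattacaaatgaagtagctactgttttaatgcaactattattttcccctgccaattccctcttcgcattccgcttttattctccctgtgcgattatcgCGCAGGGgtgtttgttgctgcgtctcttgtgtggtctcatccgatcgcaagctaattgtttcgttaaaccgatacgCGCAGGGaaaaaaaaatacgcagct
Rank 46, nearest start W02H3.3, chrX:11094118-11094317, plus strand: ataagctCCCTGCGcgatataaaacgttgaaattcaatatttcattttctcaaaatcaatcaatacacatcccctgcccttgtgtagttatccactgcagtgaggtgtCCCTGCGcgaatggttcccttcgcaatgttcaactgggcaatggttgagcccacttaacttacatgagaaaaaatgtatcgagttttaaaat
Rank 23, nearest start nipi-3, chrX:15607669-15607868, plus strand: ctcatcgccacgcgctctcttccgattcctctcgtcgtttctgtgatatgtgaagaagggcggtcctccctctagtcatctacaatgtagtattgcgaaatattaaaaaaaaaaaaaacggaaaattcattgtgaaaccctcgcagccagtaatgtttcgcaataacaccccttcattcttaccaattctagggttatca

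The region of rank 23 had the highest signal on X, 125.8, and ranked 25 in replicate 1 and 29 in replicate 2. It lay at chrX:15607604-15607933, between genes, and its summit was 200 bp upstream of the start of nipi-3, a gene for a Tribbles-like pseudokinase of the innate immune response. The region of rank 31 had a signal of 97.1 and ranked 34 and 35 in replicates 1 and 2. It lay at chrX:806511-806840, between genes, and the nearest start, that of gtr-1, was 3898 bp away with the summit on the downstream side. These 2 regions stood high in both replicates, within a few ranks.

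The next regions, called here by their pooled rank, were likewise at intergenic or intronic places. Rank 38 (chrX:9465733-9466062; signal 85.7) was intergenic, 2553 bp downstream of the start of ZK899.6, and ranked 44 in replicate 1 and 27 in replicate 2. Rank 39 (chrX:11937414-11937743; signal 85.2) was intergenic, 1347 bp from the start of F55G7.5, and ranked 31 and 87. Rank 42 (chrX:2996916-2997245; signal 82.4) lay in an intron of Y41G9A.17, and ranked 36 and 72. Like rank 31, ranks 39 and 42 held the core, while rank 38 held the short repeat GAGAGA.

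Rank 46 (chrX:11094053-11094382; signal 80.5) was intergenic, 3968 bp from the start of W02H3.3, and ranked 86 in replicate 1 and 31 in replicate 2. Rank 48 (chrX:7823115-7823444; signal 78.6) lay 374 bp upstream of eef-1A.2, which encodes the translation elongation factor 1A, and ranked 80 and 34. Rank 50 (chrX:4142134-4142463; signal 76.5) lay in an intron of ZK470.2, with the nearest start, ZK470.4, 2532 bp away, and ranked 30 and 168. Of these 3, the region at eef-1A.2 alone lay within 1 kb of a protein-coding gene start.

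Rank 57 (chrX:6296423-6296752; signal 73.3) lay in an intron of mom-1, which encodes a Porcupine-type enzyme needed for Wnt secretion, and ranked 156 in replicate 1 and 26 in replicate 2. The nearest start was that of the carboxylesterase gene cest-16, 3354 bp away. Rank 72 (chrX:8036187-8036516; signal 67.0) was intergenic, 4961 bp upstream of xol-1, the master switch gene that reads the number of X chromosomes in the embryo. It ranked 37 in replicate 1 but 2563 in replicate 2, with signals of 52.0 and 14.8. The xol-1 region was thus much higher in one replicate than in the other.

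The remaining 5 of the 15 highest places ranked between 55 and 69. Rank 55 (chrX:12362992-12363321; signal 74.0) was intergenic, 1747 bp from the start of F19H6.5, and ranked 43 in replicate 1 and 157 in replicate 2. Rank 56 (chrX:16056430-16056759; signal 73.8), which held the core, was intergenic, 1050 bp from the start of T27A8.7, and ranked 41 and 188. Both were lower in replicate 2 than in replicate 1. Rank 63 (chrX:13700655-13700984; signal 70.7) was intergenic, 6087 bp upstream of K02D3.1, and ranked 100 and 43. Rank 69 (chrX:6255607-6255936; signal 67.3) was intergenic, 7876 bp upstream of W05H9.4, and ranked 90 and 112. Rank 68 (chrX:3036028-3036357; signal 69.7) lay on an exon of a noncoding gene, with M02F4.12 and 2 tRNA genes within 200 bp, and ranked 109 and 68.

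The core was read against rank on X and on the autosomes, which the dosage compensation complex does not target. The regions were not compared with known recruitment sites, and whether any of them is one was not tested. Among regions of rank 1 to 159, 10 of 30 on X held it, 33.3% (17.3 to 52.8), against 3 of 104 on the autosomes, 2.88% (0.599 to 8.20). On X the share was 2.00% at ranks 160 to 500, 0.952% at ranks 501 to 1000, 0.783% at ranks 1001 to 3000 and 0.348% at lower ranks. The autosomal shares at the same ranks were 1.03%, 0.253%, 0.371% and 0.258%. The exact intervals of X and autosomes did not overlap at ranks 1 to 159 and overlapped at each of the lower tiers. These intervals cover counting error over regions only; no test was made, since regions of 1 experiment are not replicates.

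**Figure D1:**
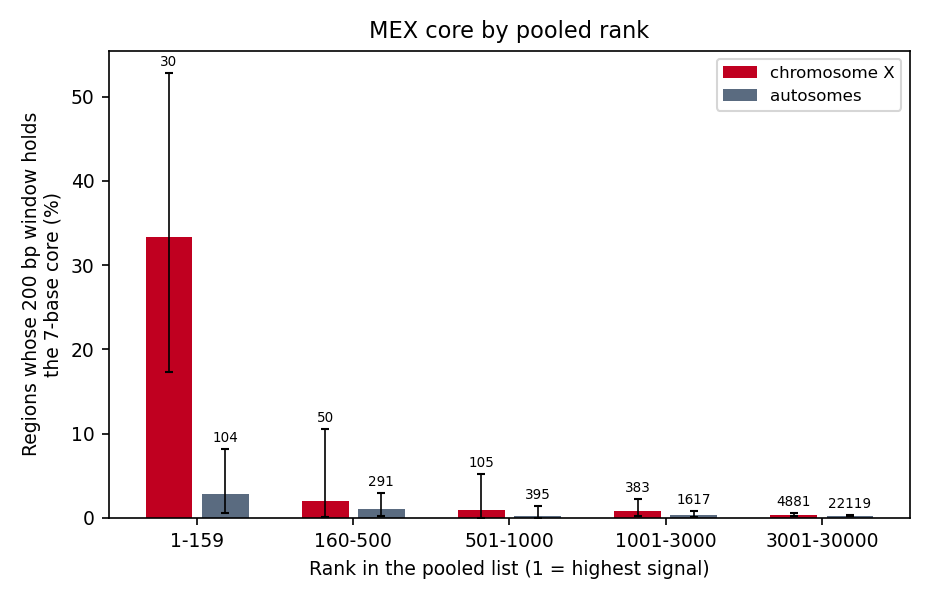
The bars give the share of regions (in percent) whose 200 bp window holds the MEX core, for X (left bar of each pair) and autosomes, over 5 tiers of pooled rank; lines are exact 95% intervals and the number above each bar is its regions. The bar for X stands at 33.3% at ranks 1 to 159 and at 2.00% or less in every lower tier.

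Each replicate's own list gave the same order. Among its 159 highest regions, 11 of 27 X regions of replicate 1 held the core, 40.7% (22.4 to 61.2), against 3 of 105 autosomal ones, 2.86%. In replicate 2 the core was in 7 of 30 X regions, 23.3% (9.93 to 42.3), against 1 of 105 autosomal ones, 0.952%. Over ranks 1 to 3000 of its own list, the X share was 2.95% in replicate 1 and 2.21% in replicate 2, against 0.203% and 0.407% of lower-ranked X regions. The core contains mostly G and C, and the highest regions were also richer in these bases: the median GC content of the windows was 43% for the 30 thresholded X regions and 39.75% for the 104 autosomal ones, against 29.5% for lower-ranked X regions. Among windows of at least 40% GC, a limit chosen after the data were seen, the core was in 5 of 20 thresholded X regions (25%; 8.66 to 49.1) and in 3 of 52 thresholded autosomal ones (5.77%; 1.21 to 15.9). In these subsets the 2 intervals overlap. The part of base composition in the difference was not tested further.

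A longer form of the motif was read from the members themselves, so its presence in them is not a finding. The bases shared by at least 60% of the 19 matches at each position spelled ATCGCGCAGGGA, searched on both strands of the whole genome. Exact copies numbered 10 on X, of which 9 are the member matches that the consensus was read from, so their place in high-ranking regions is fixed by construction. The autosomes held 1 exact copy, on chromosome V, which overlapped no candidate region. The consensus is given as a description of the matches, and no comparison of ranks was drawn from it.

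Distance from gene starts was compared next. Of the 568 members, 192 had their summit within 1 kb of a protein-coding gene start, 33.8% (29.9 to 37.9), against 30.4% (29.2 to 31.8) of lower-ranked X regions and 35.8% of all nuclear candidate regions. The difference on X was small and turned round in replicate 1, where 29.7% of X regions of rank 1 to 3000 and 30.8% of lower-ranked ones were near a start; in replicate 2 the shares were 31.5% and 30.1%. Of autosomal regions of rank 1 to 3000, 44.5% (42.5 to 46.5) were near a start. Among the thresholded regions the gap between X and autosomes was wider: 7 of 30 on X were near a start, 23.3% (9.93 to 42.3), against 69 of 104 on the autosomes, 66.3% (56.4 to 75.3). The interval on X covers the 30.4% of lower-ranked X regions, so the difference seen was from the autosomes. In the 159 highest regions of each replicate's own list, these shares were 25.9% on X against 63.8% on the autosomes in replicate 1, and 20% against 60% in replicate 2.

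**Figure D2:**
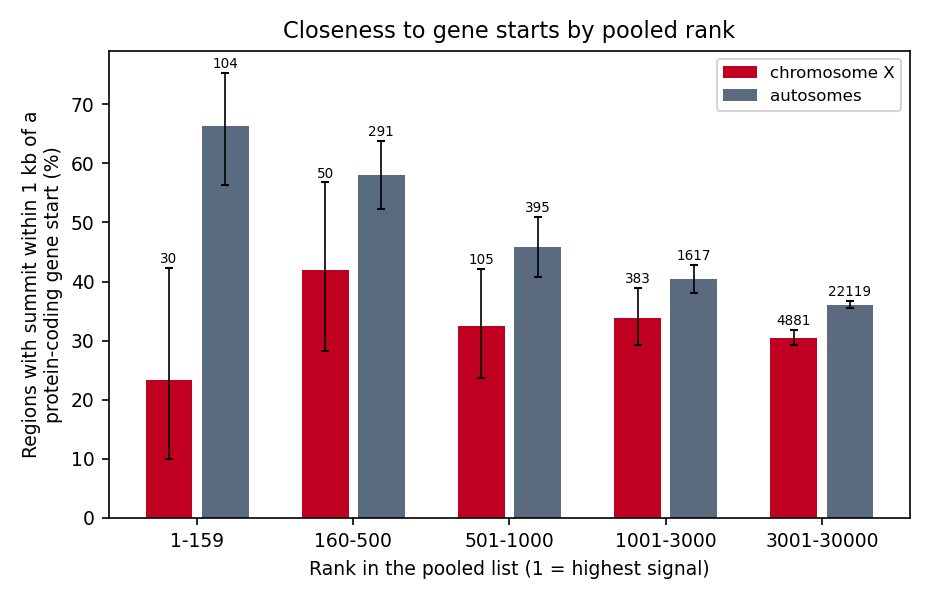
The bars give the share of regions (in percent) with the summit within 1 kb of a protein-coding gene start, for X (left bar of each pair) and autosomes, over 5 tiers of pooled rank; lines are exact 95% intervals and the number above each bar is its regions. The X bar stands at 30.4% at ranks below 3000 and 23.3% at ranks 1 to 159, and the autosomal bar at 36.1% and 66.3% at the same ranks.

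From ranks below 3000 up through the 4 higher tiers, the share near a start on X was 30.4%, 33.9%, 32.4%, 42.0% and 23.3%. On the autosomes it was 36.1%, 40.4%, 45.8%, 58.1% and 66.3%, larger in each higher tier, which was not so on X. The median distance from summit to nearest start was 2542.5 bp for the 30 thresholded X regions, against 341.5 bp for the 104 autosomal ones. Over all 568 members it was 1804 bp, close to the 1866 bp of lower-ranked X regions, and 84 members lay more than 5 kb from any protein-coding gene start. Of the 192 members near a start, 134 lay upstream of it, 69.8% (62.8 to 76.2), against 56.5% (54.0 to 59.1) of the lower-ranked X regions near a start. The autosomal shares were alike, 70.9% (68.1 to 73.6) at ranks 1 to 3000 and 56.2% (55.1 to 57.3) at lower ranks, so this was not particular to X.

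**Figure D3:**
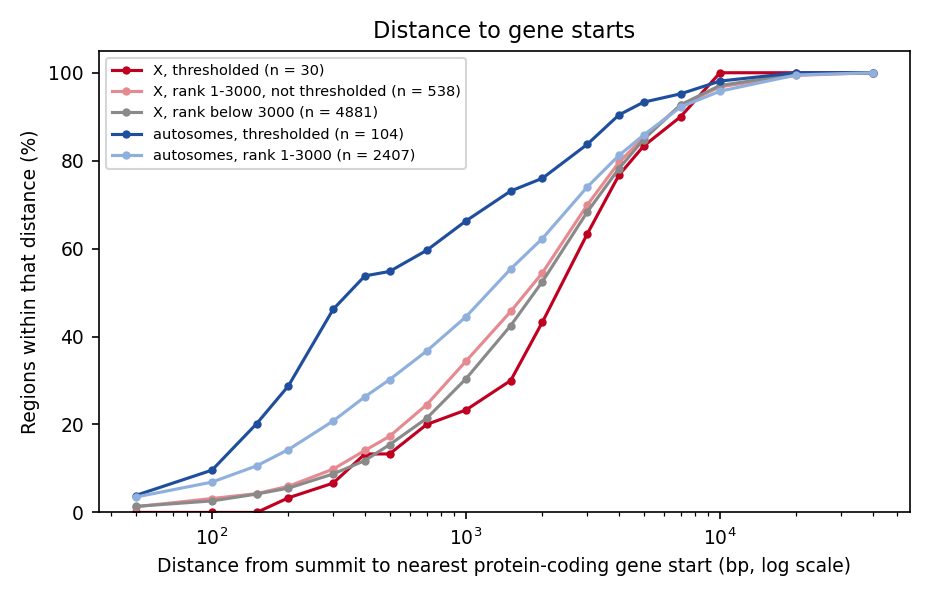
The lines give the cumulative share of regions (in percent) by distance from the summit to the nearest protein-coding gene start (bp, log scale), for 3 sets of X regions and 2 sets of autosomal ones. At 1000 bp the thresholded X regions stand at 23.3% and the thresholded autosomal ones at 66.3%.

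The 30 thresholded X regions were divided by the core and GAGAGA. The core was in 10 of them, GAGAGA was in another 10, and neither was in the remaining 10; no region held both. Of the 10 with the core, 8 were intergenic, 2 intronic and 1 lay within 1 kb of a start, the region of rank 110 upstream of nspc-17. Of the 10 with GAGAGA, 4 lay within 1 kb of a start: those at eef-1A.2, sor-3, rpl-11.2, which encodes a ribosomal protein, and epn-1, which encodes the endocytic adaptor epsin. Of the 10 with neither, 2 did, those at nipi-3 and T24D8.6. Their signals covered overlapping ranges, 52.5 to 97.1 with the core, 49.5 to 85.7 with GAGAGA and 53.3 to 125.8 with neither. The median GC content was 40% in the core group and 48.25% in the GAGAGA group.

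GAGAGA was in 33.3% (17.3 to 52.8) of thresholded X regions and in 44.2% (34.5 to 54.3) of autosomal ones, with overlapping intervals. Over all members it was in 13% (10.4 to 16.1), against 7.95% (7.21 to 8.74) of lower-ranked X regions and 9.52% of all X windows. The autosomes had a similar difference, 15.6% (14.2 to 17.1) at ranks 1 to 3000 against 9.12% (8.74 to 9.51) at lower ranks. In the replicates' own lists, the GAGAGA share of high-ranking X regions was 11.0% (8.54 to 14.0) in replicate 1 and 13.3% (10.6 to 16.3) in replicate 2. Among lower-ranked X regions it was 8.36% (7.61 to 9.17) and 8.30% (7.54 to 9.10), so the intervals overlapped in replicate 1. CACGTG, the E-box of basic helix-loop-helix factors, was in 4.05% (2.58 to 6.01) of members, against 1.95% (1.58 to 2.37) of lower-ranked X regions and 2.64% of all X windows. In the replicates' own lists its share was 4.05% (2.56 to 6.07) in replicate 1 and 3.07% (1.83 to 4.80) in replicate 2. Among lower-ranked X regions it was 2.54% (2.12 to 3.02) and 2.40% (1.99 to 2.87), with overlapping intervals in both replicates. AGGTCA, the half-site of many nuclear receptors, was in 4.23% (2.73 to 6.22) of members and 4.28% (3.73 to 4.89) of lower-ranked ones. TGATAA, bound by factors of the GATA family, was in 22.4% (19 to 26) and 21.9% (20.8 to 23.1), and TGACTCA, the AP-1 motif, in 2.11% (1.10 to 3.66) and 1.97% (1.60 to 2.40). For these last 3 motifs the intervals overlapped widely. All 6 motifs were searched on both strands of 200 bp windows, and a match is a match of letters, not a bound site.

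By annotation, 346 of the 568 members were intergenic, 60.9% (56.8 to 65.0), against 52.9% (51.5 to 54.3) of lower-ranked X regions. Intronic summits made up 27.5% (23.8 to 31.3), against 33.4% (32.0 to 34.7), and coding exons 2.29% (1.22 to 3.88), against 6.08% (5.43 to 6.79). Summits in 3′ UTRs made up 6.34% (4.48 to 8.67), against 4.71% (4.13 to 5.34). In the replicates' own lists the intergenic share was 61.1% and 57.8% at ranks 1 to 3000, against 51.0% and 50.4% at lower ranks, in replicates 1 and 2. Of autosomal regions, 53.8% (51.7 to 55.8) were intergenic at ranks 1 to 3000, against 41.0% (40.4 to 41.7) at lower ranks. Their intronic share was 31.8% (29.9 to 33.7) against 40.2% (39.6 to 40.9). Coding exons made up 4.69% (3.88 to 5.62) of them against 10.2% (9.77 to 10.6). A larger intergenic share and smaller intronic and coding exon shares at high rank were therefore not confined to X. Among thresholded regions the intergenic share was 73.3% (54.1 to 87.7) on X, against 68.3% (58.4 to 77.1) on the autosomes. All 30 thresholded X regions lay outside coding exons and UTRs: 22 were intergenic, 5 intronic and 3 on exons of noncoding genes. The interval for each absent class ran from 0 to 11.6%. Of thresholded autosomal regions, 0.962% lay in coding exons, 4.81% in 5′ UTRs and 1.92% in 3′ UTRs. Among X regions of rank 1 to 159 in the replicates' own lists, 2 of 27 lay in coding exons in replicate 1 and 0 of 30 in replicate 2.

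The replicates ranked most members differently. The pooled list was made from both replicates, so their ranks are not independent of how the members were chosen and are given as a description. Of the 568 members, 263 overlapped a region of rank 1 to 3000 in replicate 1, 46.3%, where 10.4% of all candidate regions did, and 233 did so in replicate 2, 41.0%, where 9.74% of all candidate regions did. In both replicates at once, 82 did, 14.4% (11.6 to 17.6), against 0.430% of lower-ranked X regions, 15% of autosomal regions of rank 1 to 3000 and 1.89% of all candidate regions. A further 154 members reached rank 3000 in neither replicate. No overlapping region was listed for 30 members in replicate 1 and for 63 in replicate 2, but each member had one in at least 1 replicate.

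The median rank of the members was 3109.5 in replicate 1 and 3488 in replicate 2. Of the 475 listed in both, 256 ranked better in replicate 1 and 219 in replicate 2. Ranks were within 2-fold of each other for 105 and over 10-fold apart for 132. The largest gaps were at Y15E3A.4 (rank 331; 3′ UTR), which ranked 22345 in replicate 1 and 124 in replicate 2, at M60.4 (rank 235; intron), which ranked 142 and 16659, and at F46H5.3 (rank 1640; intron), which ranked 29847 and 325. Among the 100 highest members the closest ranks were those of gtr-1, given above, of irk-3, an inward rectifier potassium channel gene (rank 403; 1864 and 1945), and of pigx-1, a gene of GPI anchor synthesis (rank 90; 104 and 116).

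All 30 thresholded X regions overlapped a region of rank 1 to 3000 in both replicates, and 15 of them one of rank 1 to 159 in both. Their high rank in the pooled list, made from both replicates, favours this. Their median rank was 95 in replicate 1 and 107 in replicate 2, and 4 of them had ranks over 10-fold apart, among them the region upstream of xol-1. Of the 15 members with the core, 12 ranked 1 to 3000 in both replicates, against 14.4% of all members and 1.89% of all candidate regions. Of the 15, 10 were thresholded regions, for which this held with or without the core. The count thus largely follows pooled rank and says nothing about the core. The exceptions among the 15 were the regions of rank 1364, 1422 and 1959 near col-185, gcc-1 and sod-3, which ranked 301, 1153 and 226 in replicate 1. In replicate 2 those near col-185 and gcc-1 ranked 23203 and 9590, and the one near sod-3 overlapped no listed region.

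**Figure D4:**
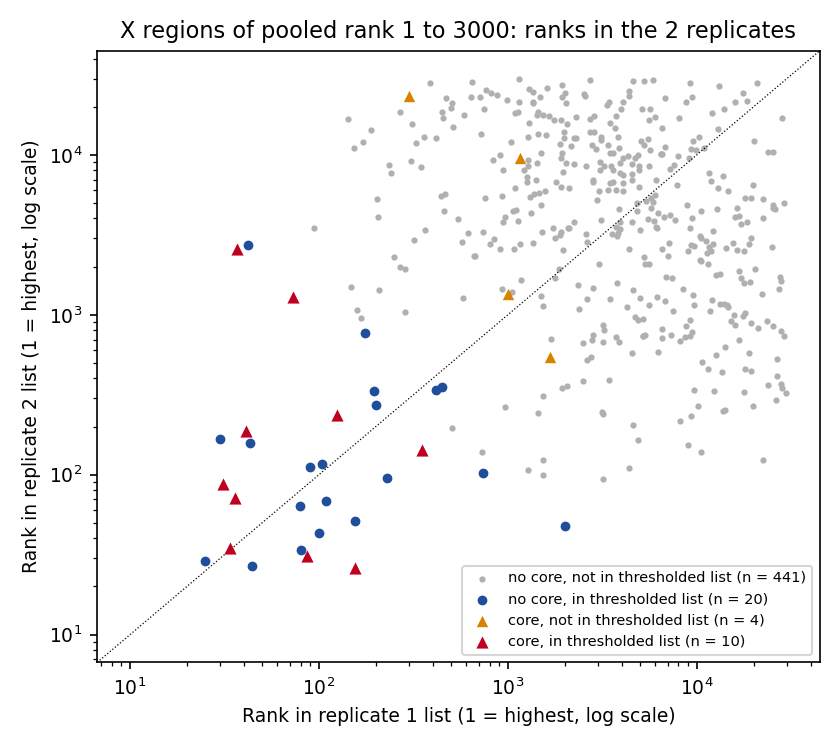
Each point is 1 of the 475 X regions of pooled rank 1 to 3000 that overlap a region in both replicate lists, placed by its rank in replicate 1 and in replicate 2 (both axes log scale, 1 = highest); triangles hold the MEX core. The 30 regions of the thresholded list sit at ranks 25 to 2016 in replicate 1 and 26 to 2727 in replicate 2, and 10 of the 14 triangles are among them.

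Members were found along the whole of X. Cut into 3 equal parts from the left end, X held 161, 181 and 226 members, or 28.3%, 31.9% and 39.8% of them, against 32.6%, 29.7% and 37.7% of lower-ranked X regions. The right part held the largest number of members and also of lower-ranked regions. X carried 19.1% (17.7 to 20.6) of the nuclear regions of rank 1 to 3000, against 18.1% of those of lower rank, and it makes up 17.7% of the length of the nuclear genome.

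In bins of 1 Mb, the share of candidate regions that were members lay between 7.74% and 16%. The highest share was in bin 11, chrX:10000001-11000000, with 42 members of 262 candidate regions (11.8 to 21), yet no thresholded region lay there. The largest number, 49, was in bin 14, chrX:13000001-14000000, which also had the most candidate regions, 386. The 30 thresholded regions were spread over 16 of the 18 bins, with none in bins 6 and 11 and 4 in bin 7. Neighbouring thresholded summits were a median of 448826 bp apart, from 6331 to 2032783 bp, and mdl-1, which encodes a MAD-like transcription factor, had the nearest start to both regions of the closest pair. That of rank 108 lay on an exon of a noncoding gene, and that of rank 124 in an intron of abts-4, an anion transporter gene. Within each motif group of 10, neighbours were a median of 1739764 bp apart with the core, 1642618 bp with GAGAGA and 1177595 bp with neither.

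**Figure D5:**
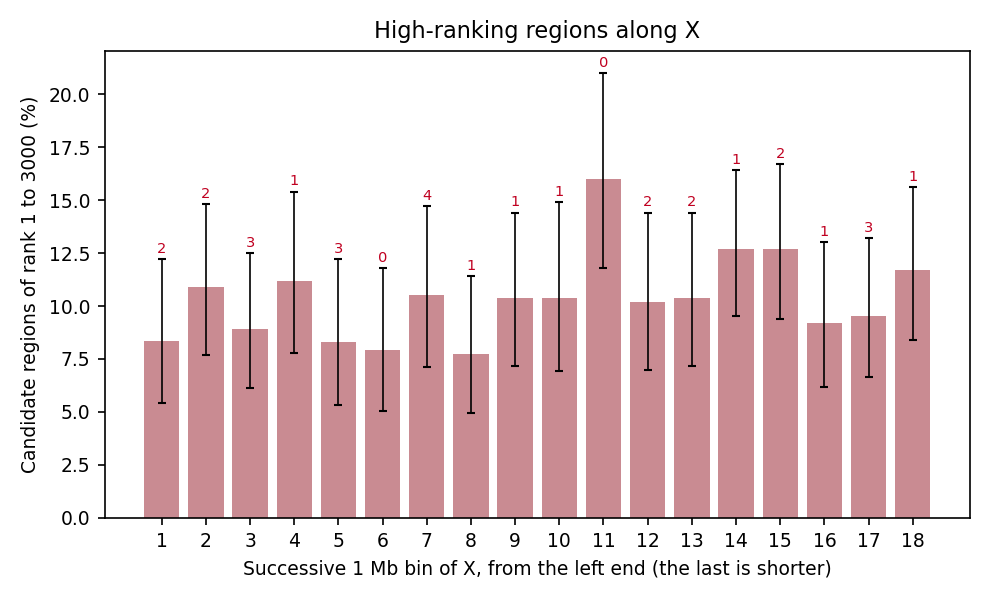
The bars give the share of candidate regions (in percent) in each 1 Mb bin of X that had rank 1 to 3000, from the left end of the chromosome; lines are exact 95% intervals and the number above each bar counts its thresholded regions. Shares run from 7.74% in bin 8 to 16% in bin 11, which has no thresholded region.

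Of the 2731 protein-coding genes on X, 183 had a member within 1 kb of their start, for which theirs was the nearest start, 6.70%, and 9 of them had 2 members. The genes are given by group, in lists chosen with earlier results of these data known, and no group was tested. None of the 6 X-linked genes that count X chromosomes or regulate dosage compensation had a member within 1 kb: ceh-39, fox-1, sdc-1, sdc-2, sex-1 and xol-1. Among the 27 nuclear hormone receptor genes on X, 5 had one: nhr-3, nhr-1, nhr-32, nhr-71 and nhr-281. The highest of these was 438 bp upstream of nhr-3 (chrX:14557901-14558230; rank 260, signal 42.7), and it ranked 209 in replicate 1 and 1435 in replicate 2. The next was 46 bp upstream of nhr-1 (rank 352, signal 39.6; 159 and 1068), and a thresholded region, rank 156, lay 8113 bp upstream of the same gene. The region 850 bp downstream of the nhr-32 start lay in an intron of that gene (rank 2604, signal 26.9; 2021 and 21219).

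Of the 5 X-linked genes listed for the translation machinery, 4 had a member: eef-1A.2, rpl-11.2, ife-4 and ife-2, the last 2 for cap-binding factors of the eIF4E family, while rpl-25.1 had none. The region at rpl-11.2 (chrX:2242818-2243147) lay 365 bp upstream, had rank 118 and signal 54.0, and ranked 742 and 102 in replicates 1 and 2. That at ife-4 lay 80 bp upstream (rank 415, signal 38.3; 930 and 1459). Of the 4 genes in the list for innate immunity and stress kinases, not all of which encode kinases, nipi-3 had a member. The other genes of that list, mek-1, sek-1 and cebp-1, had none.

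Of 24 genes in the homeobox list, 2 had one (8.33%, against 6.70% of all X genes): ceh-37, a homeobox gene with an intronic region (rank 2576, signal 26.9; 9182 and 28277), and unc-3, whose product is a COE-type factor of motor neurons rather than a homeodomain protein (rank 1251, signal 30.8; 489 in replicate 1, none listed in replicate 2). Of 22 genes for basic helix-loop-helix, bZIP, forkhead, GATA and SOX factors, 1 (4.55%) had one, 194 bp upstream of atf-4, a bZIP factor of the stress response (rank 299, signal 41.5; 250 and 2303). None of the 3 heterochronic genes on the list, alg-1, hbl-1 and lin-14, had one.

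Most other lists were at or under the 6.70% of all X genes. Members lay near 2 of 34 neuropeptide and insulin genes, ins-39 (rank 598, signal 35.4) and nlp-6 (rank 2321, 27.5), and near 2 of 84 genes for ion channels and synaptic receptors, npr-8 (rank 1325, 30.4) and lgc-23 (rank 1813, 28.8). They lay near 1 of 33 chemoreceptor genes, srd-43 (rank 2855, 26.4), 1 of 29 collagen genes, col-179 (rank 431, 38), and 1 of 22 genes of vitellogenins and lipid metabolism, acdh-7 (rank 2847, 26.4). Of 14 genes for UGT, GST and cytochrome P450 enzymes, cyp-14A2 had one (rank 2031, 28.2). The short lists of tissue genes on X gave 0 of 6 for intestine, 0 of 3 for muscle, 0 of 4 for hypodermis and 1 of 6 for neurons, which was unc-3. All of these counts are small.

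Some genes held several members in the gene body or the 2 kb upstream. A longer gene has more room for members, and no share over all X genes is given, so these counts set no gene apart. The most were in scd-1, with 4 places over 21903 bp, the best of them an intronic region of rank 122. The genes mob-2, ajm-1, sma-9, C06E2.1 and ist-1 had 3 each. Of these, ajm-1 encodes a protein of the epithelial junction, sma-9 a zinc-finger factor of the TGF-beta pathway of body size, and ist-1 an insulin receptor substrate. C06E2.1 is the shortest, with 3 places for a gene of 1916 bp. Per 10 kb of gene and upstream stretch, the places numbered 1.67 in scd-1, 1.56 in mob-2 and 0.918 in ajm-1. In sma-9, ist-1 and C06E2.1 they numbered 1.91, 2.00 and 7.66.

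Noncoding genes lay within 200 bp of some of the highest X summits. Annotated noncoding RNA (ncRNA) genes lay that near to 6 of the 30 thresholded regions: R03G5.8 at the eef-1A.2 region, M02F4.12, C04E7.7 near sor-3, T04C10.8 and T04C10.9 near epn-1, R03E9.10 near mdl-1, and AH9.7 near rpl-11.2, where the long intergenic RNA gene linc-78 also lies. Over all members the share with such a gene was 7.04% (5.08 to 9.47), against 4.75% (4.17 to 5.39) of lower-ranked X regions. For tRNA genes it was 1.41% (0.610 to 2.76), against 1.21% (0.921 to 1.56).

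The limit of rank 3000 cut a continuous range of signal. The members' signals ran from 26.12 to 125.8, with a median of 29.88, and those of lower-ranked X regions from 12.53 to 26.08. Just inside the limit were the regions of rank 2973 near nhr-17 (signal 26.1450), rank 2984 near rabr-1 (26.1225) and rank 2986 near ssr-2 (26.1180). Just outside were rank 3003 near C15H9.11 (26.0823), rank 3006 near del-8 (26.0786) and rank 3009 near tmem-218 (26.0778).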

How the data were processed

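ChIP-seq of eGFP-NHR-28 in L1 larvae of OP317 gave 2 biological replicates, 1 group. Lists of 30000 candidate regions, which mix peaks and background, exist for each replicate and for both pooled, and a list of 159 peaks was thresholded by the irreproducible discovery rate, per the deposited file listing. The authors computed a signal for each region relative to a control. The −log10 q value deposited for each region was left unused. The ce11 lists were used; the ce10 lists were not used for coordinates. No source used here names the aligner, peak caller or thresholds, and with no read counts the depth, and so the precision of the lower ranks, is unknown.

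Regions were ranked by signal in each list, joined between lists by an overlap of at least 1 bp, and annotated at the summit with Ensembl release 115. Shares carry exact Clopper-Pearson 95% intervals (SciPy 1.17.1), which cover counting error over regions only. Samples were not compared and no p-value was computed. The 6 motifs were sought on both strands. The overlap ranks, the distances to the nearest start and the motif search were checked on simulated data. The other steps were not. Named genes are those at the 15 highest places, up to 3 per gene list, the largest and smallest replicate gaps, genes with most places, those at the rank limit, and noncoding genes at the 30 highest summits; the regions holding the core, and the other genes named at the 30 highest summits, were named after their values were seen. The members and lists were chosen with earlier results of these data known. Alternatives were other rank limits, distances, windows, bins, overlaps and each replicate alone.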

Additional observations from a re-analysis of the deposited data

How the results depend on the processing

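Of 88 alternatives, 70 left the value within its exact interval and 18 moved it. The core share was larger in members than in lower-ranked X regions in all 9 of its alternatives. In 1 of them, the 8-base core, the added G was chosen after the member matches were seen, so its direction was favoured in advance. The main value was 2.64%. The share was 4.90% at rank limit 1500 (lower-ranked 0.349%), 1.41% in 100 bp windows (0.205%) and 6.02% in windows of at least 40% GC (1.16%). At that GC limit the intervals overlapped, 1.98 to 13.5 in members and 0.379 to 2.69 in lower-ranked X regions. The share of members near a start was 17.1% at 500 bp, 53.9% at 2 kb and 50.7% with all gene starts but those of piRNAs, and 29.7% to 31.5% with 1 replicate left out; without replicate 2 it was below the 30.8% of lower-ranked X regions, so its direction turned. The share ranked high in both replicates was 26.6% at rank limit 1500 and 7.61% at 6000, and the intergenic share 65.4% at 1500. In 100 bp and 400 bp windows GAGAGA was in 7.22% and 22.9% of members, AGGTCA in 2.46% and 9.15%, and TGATAA in 12.5% and 40.3%; in 400 bp windows CACGTG was in 6.51% and TGACTCA in 4.05%. The difference between members and lower-ranked X regions kept its direction in 3 of 7 alternatives for AGGTCA, 5 of 7 for TGATAA, 6 of 7 for TGACTCA, 7 of 7 for GAGAGA and for CACGTG, and 5 of 5 for intergenic regions. No paired analysis was possible because there was 1 group. The GC limit, the 8-base core, the rank tiers and the 12-base consensus were chosen after seeing the data. The unknown depth limits the precision of ranks.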

Other observations

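CACGTG was in 4 of the 30 thresholded X regions, 13.3% (3.76 to 30.7), and in 7 of the 50 X regions of rank 160 to 500, 14.0% (5.82 to 26.7). In X regions of rank 501 to 1000 it was in 1 of 105, 0.952%. On the autosomes at the same ranks it was in 3.85% (1.06 to 9.56), 5.84% (3.44 to 9.19) and 3.04% (1.58 to 5.25). The X and autosomal intervals overlapped in each of these tiers. At ranks 1001 to 3000 the share was 2.87% on X and 2.78% on the autosomes. In the 159 highest regions of replicate 1's own list it was in 2 of 27 on X, against 4.76% of autosomal ones. In replicate 2 it was in 3 of 30, against 3.81%, and the intervals overlapped in both replicates. Pseudogenes lay within 200 bp of 2 members, 0.352% (0.0427 to 1.27), against 68 lower-ranked X regions, 1.39% (1.08 to 1.76), with overlapping intervals. No miRNA gene lay that near to a member (interval 0 to 0.647), against 8 lower-ranked X regions, 0.164% (0.0708 to 0.323). These intervals overlap too, so neither count sets members apart.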
